A study of Rattus norvegicus with 29 samples.

Results

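The alpha, mu and pi glutathione transferases are followed here in rat liver, through 8 genes: Gsta3 and Gsta4 of the alpha class, Gstm1, Gstm2, Gstm3, Gstm4 and Gstm7 of the mu class, and Gstp1 of the pi class. They were taken as every transcript cluster, the array's unit for one gene, whose single gene symbol in the platform annotation was one of these names. That gave 9 of 27342 clusters, because Gsta4 is represented by clusters 10884917 and 10911797 and each other gene by 1. A single symbol was available for 15097 of all clusters, and the 323 clusters with more than 1 symbol were not searched for members.

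Male Crl:CD Sprague-Dawley rats of 6 to 7 weeks received PMCol (2,2,5,7,8-pentamethyl-6-chromanol, a chromanol related to vitamin E without its long side chain) or only the vehicle, 1% methylcellulose in water, once a day by gavage. The groups were vehicle for 7 doses, killed on day 8 (n = 6), PMCol at 2000 mg/kg for 7 doses, killed on day 8 (n = 6), vehicle for 28 doses, killed on day 29 (n = 6), PMCol at 200 mg/kg for 28 doses, killed on day 29 (n = 6), and PMCol at 2000 mg/kg for 28 doses, killed on day 29 (n = 5). All 5 groups share the sex, strain, vehicle and route, and each animal gave RNA of the left liver lobe for 1 whole-transcript array. The same age range is listed for all groups. It is read as the age at the first dose, so animals killed on day 29 were older than those killed on day 8. Day of kill, age at kill, number of gavages and time since the first dose changed together. Their parts in any difference between day 8 and day 29 cannot be told apart. The 200 and 2000 mg/kg groups of day 29 were compared with the same 6 vehicle animals, so those comparisons share their controls.

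Glutathione transferases join the tripeptide glutathione to reactive, electron-poor compounds, which makes them soluble and ready for export from the cell. The cytosolic enzymes are dimers, and the alpha, mu and pi classes differ in the substrates they prefer. In rat liver several alpha and mu genes are long known to be inducible by phenolic antioxidants and other drugs, largely through the transcription factor NRF2 at antioxidant response elements. The pi enzyme is low in normal rat hepatocytes, is found in bile duct cells, and is a classical marker of preneoplastic liver foci in this species.

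The 250 bases before the transcription start of the 8 genes were searched on both strands for TGACNNNGC, the core of the antioxidant response element, and GCGTG, the core of the xenobiotic response element bound by the aryl hydrocarbon receptor. The sequences are RefSeq's for assembly GRCr8, in which all 8 genes had a promoter entry and Gsta3 had more than 1, so that 9 promoters were read. TGACNNNGC was found in 3 genes, Gsta3, Gstp1 and Gstm7, while 10.1% of 33469 rat promoters of the same length hold it. These 3 promoters are shown because Gsta3 and Gstp1 had the largest rises among the 8 genes at 2000 mg/kg and Gstm7 did not pass the test in any comparison. The match is in capitals.
Gsta3, chr9:31154739-31154988, plus strand: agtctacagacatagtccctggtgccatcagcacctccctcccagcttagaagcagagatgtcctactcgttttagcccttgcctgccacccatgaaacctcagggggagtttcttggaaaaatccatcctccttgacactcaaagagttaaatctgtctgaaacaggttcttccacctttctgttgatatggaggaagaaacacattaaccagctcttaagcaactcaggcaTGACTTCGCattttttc
Gstp1, chr1:210769706-210769955, minus strand: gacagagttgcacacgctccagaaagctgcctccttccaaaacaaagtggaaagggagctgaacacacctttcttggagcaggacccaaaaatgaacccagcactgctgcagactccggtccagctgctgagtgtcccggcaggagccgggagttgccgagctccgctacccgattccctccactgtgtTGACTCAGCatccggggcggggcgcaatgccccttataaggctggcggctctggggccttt
Gstm7, chr2:198260320-198260569, minus strand: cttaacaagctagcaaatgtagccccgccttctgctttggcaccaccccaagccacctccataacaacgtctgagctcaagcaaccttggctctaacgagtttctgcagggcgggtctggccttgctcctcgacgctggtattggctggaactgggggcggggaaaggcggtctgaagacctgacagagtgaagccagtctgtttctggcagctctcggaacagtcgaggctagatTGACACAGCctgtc

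In Gsta3 the match TGACTTCGC lay 17 to 9 bases before the start, in Gstp1 the match TGACTCAGC lay 61 to 53 bases before it, and in Gstm7 the match TGACACAGC lay 14 to 6 bases before it. GCGTG was present in 4 genes, Gsta4, Gstm4, Gstp1 and the second Gsta3 promoter, against 25.9% of all promoters. No overlap between matches of the 2 motifs occurred. A match describes letters in this window and is not evidence of a bound site, and elements farther away were not read.

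The values are log2 signals that were centred on each cluster's median over the 29 arrays. They therefore compare animals for 1 gene and give no level of expression, so the 8 genes are ordered by their differences and not by abundance. Array medians lay between -0.023 and 0.029, and the number of arrays limits the precision. By the rounding of the deposited numbers, 8 of the 9 clusters appeared stored at 8 or more in every animal before centring. The same held for 28.4% of all clusters. Gsta3 appeared stored below 8 in 5 animals, 4 of them vehicle animals of day 29 and 1 of day 8. A signal below 8 can by chance carry the rounding of a higher one, so such animals can be missed. Values at or very close to the median were not judged. By the same reading all 4 measured hepatocyte markers (albumin among them) were stored at 8 or more in every animal. That held for 1 of 5 bile duct markers. In whole liver, fewer cells of a type and less RNA per cell cannot be told apart.

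**Figure D1:**
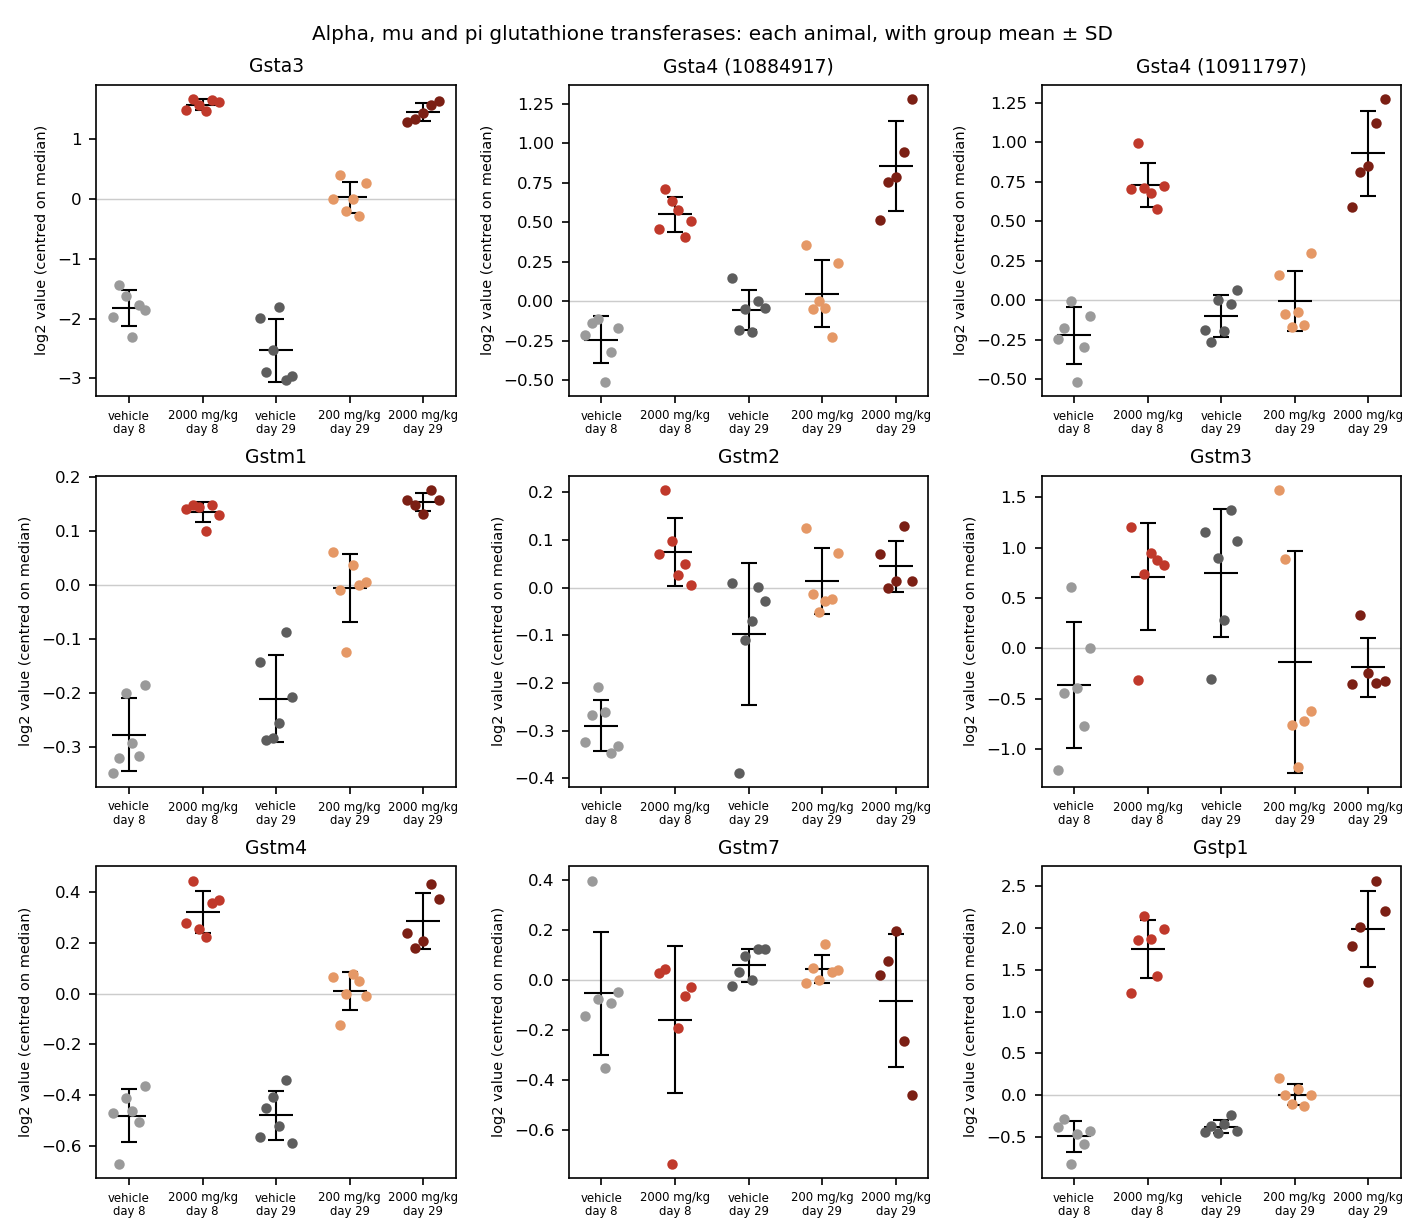
Each panel is 1 transcript cluster, with every animal's log2 value, centred on the cluster's median over 29 animals, on the y axis and the 5 groups on the x axis; horizontal lines give the group mean and bars the SD, and the y axes differ between panels. Gsta3 and Gstp1 are high at 2000 mg/kg on both days, Gsta3 is raised at 200 mg/kg too, and Gstm3 has the widest spread within groups.

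After 7 doses of 2000 mg/kg, 7 of the 8 genes rose and none fell. Gsta3 was 10.6-fold higher than in vehicle animals and Gstp1 4.72-fold higher, while the other rises lay between 0.37 (Gstm2) and 1.08 (Gstm3) on the log2 scale. Counted as clusters, 8 of 9 were higher at an adjusted p under 0.05 in the limma fit, against 9.32% of all clusters called higher and 9.32% called lower. The 2 groups did not overlap for 7 clusters, all with PMCol above vehicle, as for 5.84% of all clusters. The median change of the 9 clusters was 0.80, and that of all clusters was -0.0049.

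After 28 doses of 2000 mg/kg, 5 of the 8 genes rose (Gsta3, Gsta4, Gstm1, Gstm4 and Gstp1) and none fell. Gsta3 was 16.0-fold and Gstp1 5.12-fold above vehicle. Of the 9 clusters 6 were higher, against 12.1% of all clusters called higher and 9.55% called lower, and the groups were apart for those 6, as for 6.43% of all clusters with PMCol above vehicle. The median change was 0.77 for the 9 clusters and 0.0025 for all.

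With 28 doses of 200 mg/kg 3 genes rose, Gsta3, Gstm1 and Gstm4, and none fell. Gsta3 was 5.91-fold above vehicle, and Gstm4 and Gstm1 were higher by 0.49 and 0.20 on the log2 scale. Against these 3 of 9 clusters, 1.37% of all clusters were called higher and 1.42% lower. The groups did not overlap for Gsta3, Gstm4 and Gstp1, where 0.83% of all clusters were apart with PMCol above vehicle. The median change was 0.11 for the 9 clusters and 0.0033 for all.

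**Figure D2:**
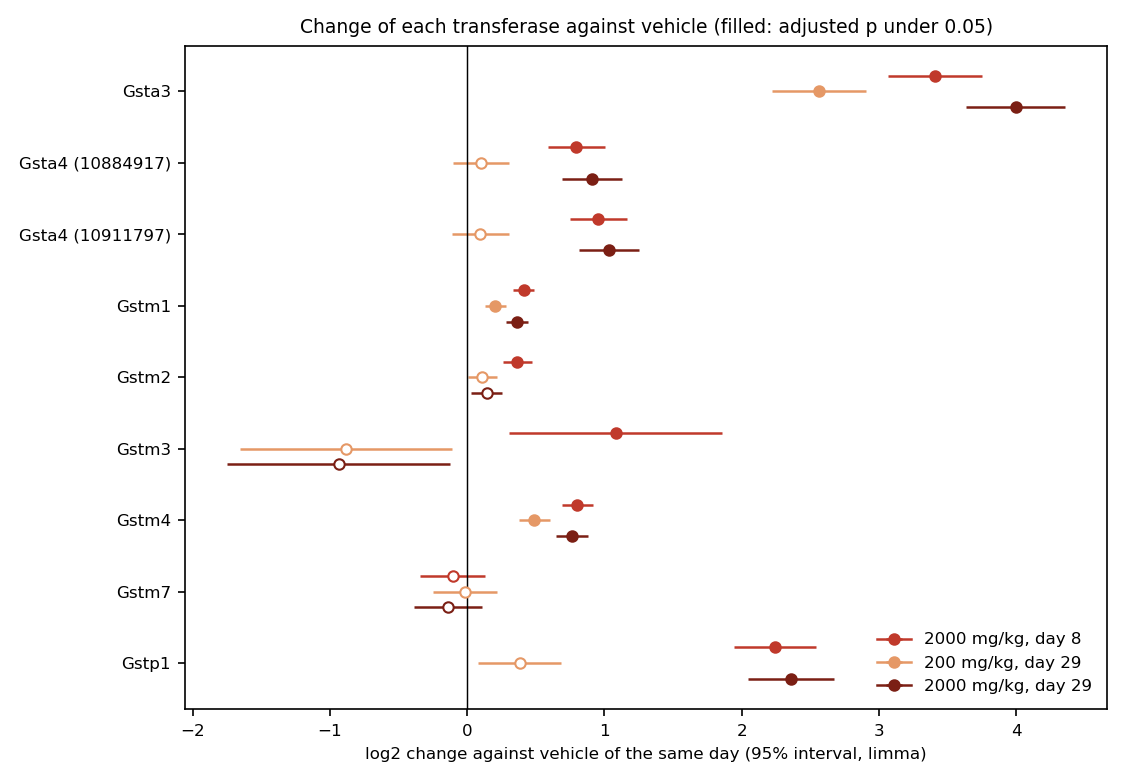
Points give the log2 change of each cluster against vehicle of the same day (x axis) with its 95% interval from limma, one row per cluster (y axis), for 2000 mg/kg at day 8, 200 mg/kg at day 29 and 2000 mg/kg at day 29; filled points passed an adjusted p of 0.05. Gsta3 lies between 2.56 and 4.00 in all 3 comparisons, Gstp1 passes at 2000 mg/kg only, and Gstm7 stays near 0.

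Gsta3 is an alpha class transferase known in the rat for conjugating aflatoxin epoxide. In vehicle animals of day 8 its values were -1.97, -1.43, -1.63, -2.30, -1.77 and -1.86, with a median of -1.81, and after 2000 mg/kg they ran from 1.47 to 1.68 with a median of 1.60. In vehicle animals of day 29 they ran from -3.02 to -1.81 with a median of -2.71. At 200 mg/kg they lay between -0.28 and 0.40, and the 5 animals given 2000 mg/kg to day 29 had 1.29, 1.35, 1.45, 1.58 and 1.64. Every treated animal was above every vehicle animal, every 200 mg/kg animal was below every 2000 mg/kg animal, and the 2000 mg/kg groups of both days overlapped.

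The change of Gsta3 against vehicle was 3.41 ± 0.17 (SE; adjusted p = 1.26e-14) at 2000 mg/kg on day 8, which made it the fifth largest rise of all clusters. On day 29 it was 4.00 ± 0.18 (adjusted p = 1.04e-15), the fourth largest rise, at 2000 mg/kg and 2.56 ± 0.17 (adjusted p = 3.8e-11), the second largest, at 200 mg/kg. Gsta3 was the only member found stored at lower signal, and in vehicle animals. An offset added before the log would therefore make its folds too small. Whether one was added is not given in the sources used here.

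Vehicle animals themselves differed in Gsta3. It was lower at day 29 than at day 8 by a log2 change of -0.71 ± 0.17 (adjusted p = 0.023 in limma), and the 2 vehicle groups overlapped. This call was lost with quantile normalization (-0.29, adjusted p = 0.327), in a fit of only these 12 animals (0.124), and without vehicle day 8 replicate 2 (adjusted p = 0.0649) or vehicle day 29 replicate 5 (0.0686) or 6 (0.0678). Gsta1, the neighbour of Gsta3 on chromosome 9 and named after its values were seen, did not show that difference (-0.02 ± 0.04, adjusted p = 0.844). Gsta1 rose by 0.59 ± 0.04 and 0.60 ± 0.04 at 2000 mg/kg on days 8 and 29 and by 0.32 ± 0.04 at 200 mg/kg. Between the vehicle groups, 2 of 16 measured genes of glutathione supply and conjugate handling were lower at day 29 and 0 higher. The larger fall was that of Abcc3 (-0.95 ± 0.13, adjusted p = 0.000259 in limma). Of 20 measured electrophile response genes 1 was lower, Me1 (-0.62 ± 0.12, adjusted p = 0.00885), and 0 higher. Of all clusters 2.73% were called in either direction.

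Genes whose 5 group means were most like those of Gsta3, by the root mean square difference after centring, were Ces2c, a carboxylesterase (0.14), Abcc3, an efflux pump for conjugates (0.18), and Akr7a3, an aldo-keto reductase that acts on aflatoxin dialdehyde (0.53). Among animals of the same group Gsta3 varied most closely, of all genes searched, with Abcc3 (r = 0.79 over 29 animals, group means removed, values from the same arrays). The SD of Gsta3 was 0.30 and 0.52 in vehicle animals of days 8 and 29. It was 0.26 at 200 mg/kg and 0.09 and 0.15 at 2000 mg/kg on days 8 and 29. The vehicle animals therefore weigh most in this r. The r of Gsta3 with Gstp1 was 0.07. These correlations describe the arrays and were not tested.

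Gsta4 is the alpha class enzyme that prefers 4-hydroxynonenal and related products of lipid peroxidation. On cluster 10911797 vehicle animals of day 8 lay between -0.52 and 0.00 with a median of -0.21, and animals given 2000 mg/kg between 0.58 and 0.99 with a median of 0.71. Vehicle animals of day 29 lay between -0.27 and 0.06 with a median of -0.11, and the 5 animals given 2000 mg/kg had 0.59, 0.81, 0.85, 1.12 and 1.28. The 200 mg/kg animals ran from -0.17 to 0.30 with a median of -0.08, inside or close to the vehicle range, and only the 2000 mg/kg animals stood clear of vehicle.

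The rise of Gsta4 at 2000 mg/kg was 0.79 ± 0.10 on cluster 10884917 and 0.96 ± 0.10 on 10911797 at day 8 (adjusted p = 1.14e-06 and 6.21e-08). At day 29 it was 0.91 ± 0.11 and 1.03 ± 0.11 (adjusted p = 2.57e-07 and 3.55e-08). Both clusters were at 0.10 ± 0.10 with 200 mg/kg (adjusted p = 0.768 and 0.785). The clusters did not disagree in any call, and their values within groups had an r of 0.85 over 29 animals. RefSeq lists 3 pseudogenes named after Gsta4, and which sequences the probes of either cluster match was not examined. Its most alike patterns were those of Ikbke (0.07), Pycr1 and Synj2 for cluster 10884917, and Synj2 (0.07), Tmprss2 and Akr1b10 for 10911797.

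Gstp1 is the pi class enzyme, which besides its enzyme activity can bind the kinase JNK. Vehicle animals had values of -0.38, -0.28, -0.82, -0.47, -0.58 and -0.43 at day 8 and of -0.44, -0.36, -0.45, -0.35, -0.23 and -0.42 at day 29. After 2000 mg/kg the values were 1.22, 1.86, 2.14, 1.86, 1.43 and 1.98 at day 8 and 1.79, 2.01, 1.35, 2.56 and 2.21 at day 29. With 200 mg/kg they were 0.21, 0.00, -0.11, 0.08, -0.13 and 0.00. The lowest 2000 mg/kg animal was more than 1 log2 unit above the highest animal of the other groups, and each 200 mg/kg animal was above the highest vehicle animal of its day.

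The change of Gstp1 was 2.24 ± 0.15 (adjusted p = 6.31e-12) at day 8 and 2.36 ± 0.15 (adjusted p = 4.96e-12) at day 29 with 2000 mg/kg. At 200 mg/kg it was 0.38 ± 0.15, a fold of 1.30 with a 95% interval of 1.06 to 1.60, and did not pass over all clusters (adjusted p = 0.192). In a fit of only the vehicle and 200 mg/kg animals it passed (adjusted p = 0.0075), since that fit does not use the wider spread of the 2000 mg/kg groups. The spread of Gstp1 was larger at 2000 mg/kg (SD of 0.35 and 0.45) than at 200 mg/kg (0.12) or in vehicle animals (0.19 and 0.08).

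Because Gstp1 is also a gene of bile duct cells, bile duct markers were set beside it. Of all clusters 9.32% on day 8 and 12.1% on day 29 were called higher at 2000 mg/kg, and 1.37% at 200 mg/kg. Of 5 bile duct markers measured of 10 listed, 1 rose at 2000 mg/kg on each day and none at 200 mg/kg. The one that rose was Epcam, a surface protein of bile duct and progenitor cells, at 0.82 ± 0.11 on day 8 and 0.88 ± 0.12 on day 29. Krt19, the keratin that defines bile duct cells, was at 0.02 ± 0.12 and 0.21 ± 0.13 and did not pass (adjusted p = 0.932 and 0.274). The mean of the 5 markers ran from -0.05 to 0.19 in animals given 2000 mg/kg to day 8 and from 0.00 to 0.19 at day 29, against -0.13 to 0.02 and -0.26 to 0.01 in vehicle animals and -0.04 to 0.07 at 200 mg/kg. Their part in the change of Gstp1 was not tested. The genes most alike Gstp1 over the group means were Derl3 (0.14), Adgrg2 (0.14) and Csmd1 (0.20). RefSeq places Gstp1 next to Gstp3 on chromosome 1 and lists 4 pseudogenes named after it.

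The mu genes lie side by side on chromosome 2, in the order Gstm7, Gstm6, Gstm3l1, Gstm3, Gstm2, Gstm1 and Gstm4, with Gstm6l on the other side of Gstm7. Differences between these genes were not tested. Gstm4 and Gstm1 rose in all 3 comparisons with vehicle, Gstm2 and Gstm3 rose at day 8 alone, and Gstm7 passed in none. Gstm6l and Gstm6, on either side of Gstm7 and named after their values were seen, were read too. Gstm6l rose at 2000 mg/kg on day 8 (0.33 ± 0.06) and day 29 (0.31 ± 0.07) and was at 0.22 ± 0.06 at 200 mg/kg (adjusted p = 0.0569). Gstm6 was at -0.01 ± 0.11, -0.30 ± 0.12 and -0.23 ± 0.11 and did not pass. Mu genes are close copies of each other, so signal shared between them by similar probes cannot be told apart here.

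Gstm4 had the largest rises of the mu genes that passed at both doses. Its values in vehicle animals ran from -0.67 to -0.37 (median -0.47) at day 8 and from -0.59 to -0.34 (median -0.49) at day 29. At 200 mg/kg they ran from -0.13 to 0.08 (median 0.03), and after 2000 mg/kg from 0.22 to 0.45 (median 0.32) at day 8 and from 0.18 to 0.43 (median 0.24) at day 29. The vehicle, 200 mg/kg and 2000 mg/kg animals of day 29 fell into 3 ranges that did not touch. Its changes were 0.80 ± 0.05 (adjusted p = 1.54e-11) at day 8, 0.77 ± 0.06 (adjusted p = 8.03e-11) at day 29 and 0.49 ± 0.05 (adjusted p = 2.05e-06) at 200 mg/kg. Genes most like it were Mab21l3 (0.04), Ephx1, the microsomal epoxide hydrolase (0.04), and Ppm1j (0.06).

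Gstm1 is a major mu subunit of rat liver. Its values ran from -0.35 to -0.19 in vehicle animals of day 8 (median -0.30) and from -0.29 to -0.09 at day 29 (median -0.23). After 2000 mg/kg they ran from 0.10 to 0.15 (median 0.14) at day 8 and from 0.13 to 0.18 (median 0.16) at day 29, and at 200 mg/kg from -0.12 to 0.06 (median 0.00). The 2000 mg/kg animals lay in a narrow band, with an SD of 0.019 and 0.017, and its pooled SD within groups was 0.057, smaller than that of all but 7.08% of clusters. The rises were 0.41 ± 0.04 (adjusted p = 2.66e-09), 0.36 ± 0.04 (adjusted p = 5.74e-08) and, at 200 mg/kg, 0.20 ± 0.04 (adjusted p = 0.00156), the last lost in a fit of only the groups compared (0.0546). In folds the day 8 rise was 1.33. Nme2 (0.02), Eef2kmt (0.02) and Slc7a4 (0.02) had the most similar group means.

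Gstm2, a further mu subunit, lay between -0.35 and -0.21 (median -0.30) in vehicle animals of day 8 and between 0.01 and 0.21 (median 0.06) after 2000 mg/kg. At day 29 vehicle animals ran from -0.39 to 0.01 (median -0.05), the 200 mg/kg animals from -0.05 to 0.13 (median -0.02) and the 2000 mg/kg animals from 0.00 to 0.13 (median 0.01). The groups were apart at day 8 and overlapped at day 29. The change was 0.37 ± 0.05 (adjusted p = 5.94e-06) at day 8, 0.14 ± 0.05 (adjusted p = 0.0602) at day 29 and 0.11 ± 0.05 (adjusted p = 0.331) at 200 mg/kg. The day 29 value passed with array weights (0.0419) and without vehicle day 29 replicate 1 (0.0352) or 5 (0.0409). Vehicle animals of day 29 were higher than those of day 8 by 0.19 ± 0.05 (adjusted p = 0.0418), a call that leaving out any of 10 of the 12 vehicle animals removed (adjusted p = 0.0616 to 0.107). The most alike patterns were those of Tceal8 (0.03), Ak3 (0.03) and Nudt18 (0.04).

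Gstm3 had the least settled values of the 8 genes. Vehicle animals of day 8 had -1.21, -0.44, 0.61, -0.39, -0.77 and 0.00, and those given 2000 mg/kg had 1.21, -0.31, 0.74, 0.95, 0.88 and 0.82. At day 29 vehicle animals had 1.16, -0.30, 0.90, 0.28, 1.38 and 1.06, the 200 mg/kg animals 1.58, 0.89, -0.76, -1.18, -0.72 and -0.62, and the 2000 mg/kg animals -0.35, 0.33, -0.25, -0.35 and -0.33. Every pair of groups compared overlapped. Its pooled SD within groups was 0.70, above that of 99.9% of clusters.

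The change of Gstm3 was 1.08 ± 0.38 (adjusted p = 0.0446) at day 8. That rise did not pass with quantile normalization (adjusted p = 0.108), or without any of 9 of the 12 animals compared (adjusted p = 0.0678 to 0.114). At day 29 the value was -0.93 ± 0.40 (adjusted p = 0.0962) at 2000 mg/kg and -0.88 ± 0.38 (adjusted p = 0.271) at 200 mg/kg. The 2000 mg/kg value passed in a fit of only the groups compared (0.0298) and without vehicle day 29 replicate 2 (-1.14, adjusted p = 0.0368), and the 200 mg/kg value without 200 mg/kg replicate 1 (-1.23, adjusted p = 0.0367). Vehicle animals of day 29 lay 1.11 ± 0.38 above those of day 8 (adjusted p = 0.10).

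Genes most alike Gstm3 over the group means were Rgs16 (0.20), a brake on G protein signalling, Myc (0.24), a growth transcription factor, and Dusp10 (0.27), a phosphatase of stress kinases. Within groups Gstm3 varied most closely with Klf6 (r = 0.75), Zmiz1 (0.75), Eef1a1 (0.74), Jund (0.73) and Zfp36l1 (0.73) over 29 animals, a search made after the values were seen. Klf6 and Zfp36l1 are known as genes that cells switch on soon after a stimulus. The mean of 15 measured immediate early genes, a list put together after the values were seen, was 0.01 in vehicle animals and -0.22 after 2000 mg/kg at day 8, and 0.55, -0.06 and -0.59 at 0, 200 and 2000 mg/kg on day 29. The matching means of Gstm3 were -0.37, 0.71, 0.75, -0.14 and -0.19. At day 8 the mean of the list was thus lower with 2000 mg/kg than in vehicle animals, and that of Gstm3 was higher. None of the 15 genes rose in the comparisons with vehicle. At 2000 mg/kg 4 fell on day 8 and 10 on day 29, and 3 fell at 200 mg/kg. The shares of all clusters called lower were 9.32%, 9.55% and 1.42%. Their part in the values of Gstm3 was not tested.

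Gstm7 passed in no comparison. Its medians were -0.08, -0.05, 0.07, 0.04 and 0.02 in vehicle at day 8, 2000 mg/kg at day 8, vehicle at day 29, 200 mg/kg and 2000 mg/kg at day 29, and the ranges of all groups overlapped. The change was -0.11 ± 0.11 (95% interval -0.34 to 0.13) at day 8, -0.14 ± 0.12 (-0.39 to 0.11) at day 29 and -0.02 ± 0.11 (-0.25 to 0.22) at 200 mg/kg. Rises as large as that of Gstm4 thus lay outside its intervals. Spred3, Zc3h10 and Rab35, each within 0.01, had the most similar group means.

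Between the doses at day 29, 5 genes were higher at 2000 than at 200 mg/kg and none was lower. Gstp1 differed most, by 1.98 ± 0.15, a fold of 3.93 (adjusted p = 1.08e-09), followed by Gsta3 with 1.43 ± 0.18, a fold of 2.70 (adjusted p = 2.24e-06), and Gsta4 with 0.81 ± 0.11 and 0.94 ± 0.11. Gstm4 differed by 0.28 ± 0.06 (adjusted p = 0.00177) and Gstm1 by 0.16 ± 0.04 (adjusted p = 0.00728). That made 6 of 9 clusters, against 6.05% of all clusters called higher and 3.84% called lower, and the dose groups were apart for these 6, as for 3.62% of all clusters. Gstm2 (0.03 ± 0.05), Gstm3 (-0.05 ± 0.40) and Gstm7 (-0.13 ± 0.12) did not pass.

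Set side by side against the shared vehicle animals, Gsta3 changed by 2.56 at 200 and 4.00 at 2000 mg/kg, Gstm4 by 0.49 and 0.77, and Gstm1 by 0.20 and 0.36. Gstp1 was at 0.38 and 2.36, and Gsta4 at 0.10 and 1.03 on cluster 10911797. Gsta3, Gstm4 and Gstm1 thus passed at both doses, while Gsta4 and Gstp1 passed at the higher dose and had intervals that reached 0.31 and 0.68 at the lower one. With 1 dose below the highest, no shape of a dose response can be drawn.

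**Figure D3:**
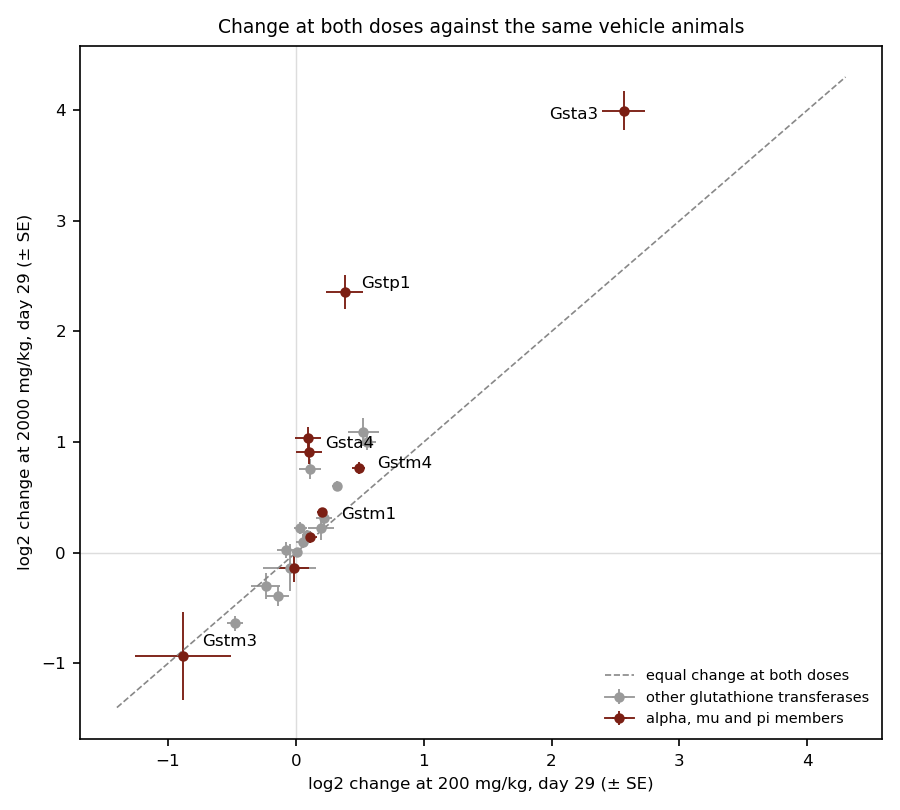
Log2 change at 200 mg/kg (x axis) and 2000 mg/kg (y axis) against the same 6 vehicle animals of day 29, with bars of 1 SE, for the 9 clusters (dark) and 15 other glutathione transferases (grey); the dashed line marks equal change. Gsta3, Gstp1 and both Gsta4 clusters lie above the line, and both axes share the error of the same vehicle animals.

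The change of the 2000 mg/kg effect between day 8 and day 29 was tested as an interaction. None of the 9 clusters passed in limma, where 0.775% of all clusters did, and 3 had an unadjusted p under 0.05, as did 14.7% of all clusters. Gsta3 had a larger effect at day 29 by 0.59 ± 0.24 (adjusted p = 0.251), with vehicle animals also lower at day 29. The effect was smaller at day 29 for Gstm2, by -0.22 ± 0.07 (adjusted p = 0.156), and for Gstm3, by -2.02 ± 0.55 (adjusted p = 0.0725), which ranked sixth in size among all clusters. Gstm3 passed without vehicle day 8 replicate 3 (adjusted p = 0.0496), vehicle day 29 replicate 2 (0.0314) or 2000 mg/kg day 8 replicate 2 (0.0418), in a fit of only these groups (0.0268), with array weights (0.0232) and among clusters stored at 8 or more (0.0472). Gstm2 passed without vehicle day 29 replicate 2 (-0.28, adjusted p = 0.0128). For Gstp1 the difference was 0.12 ± 0.21, with an interval from -0.32 to 0.55.

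Between the vehicle groups 1 of 9 clusters was higher (Gstm2) and 1 lower (Gsta3) at day 29, where 2.73% of all clusters were called, and no cluster of the 9 was apart, where 1.25% of all clusters were. Gstm3 passed in this comparison without vehicle day 29 replicate 2 (adjusted p = 0.0311). All 10 macrophage markers fell in the same comparison, with a median of -1.02, as did 4 of 5 endothelial markers and 1 of 5 erythrocyte markers. At day 8 the 10 macrophage markers fell with 2000 mg/kg too (median -1.03), 2 of 5 endothelial, 2 of 5 erythrocyte and 3 of 10 stellate markers fell and 1 stellate marker rose. At day 29 8 of 10 stellate markers fell at 2000 mg/kg and 1 at 200 mg/kg, and no macrophage, endothelial or erythrocyte marker passed. Of 4 hepatocyte markers 2 fell at 2000 mg/kg on day 8 and 1 on day 29, with medians of -0.13 and -0.07, and none passed at 200 mg/kg. At 2000 mg/kg on day 8, 9.32% of all clusters were called lower and 9.32% higher. On day 29 the shares called lower were 9.55% at 2000 mg/kg and 1.42% at 200 mg/kg. The part of these cell types in the transferase values was not tested.

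Of the other glutathione transferases 15 of 23 listed were measured. At 2000 mg/kg 7 rose and 1 fell on day 8, and 7 rose and 2 fell on day 29, with medians of 0.18 and 0.16. At 200 mg/kg 3 rose and 1 fell, with a median of 0.05. Among all clusters 9.32%, 12.1% and 1.37% were called higher in these comparisons, and 9.32%, 9.55% and 1.42% lower. The rises included Mgst2, a microsomal enzyme (1.04 ± 0.12, 1.09 ± 0.13 and, at 200 mg/kg, 0.53 ± 0.12), and Gstt1, of the theta class (0.92 ± 0.07, 1.00 ± 0.08 and 0.56 ± 0.07). Gstcd, which carries a transferase-like domain, rose at 2000 mg/kg (0.75 ± 0.09 and 0.76 ± 0.09) and was at 0.11 ± 0.09 at 200 mg/kg. Ltc4s, which makes leukotriene C4, fell at day 29 by a log2 change of -0.64 ± 0.07 and, at 200 mg/kg, -0.48 ± 0.06. At 2000 mg/kg on day 8 Ltc4s was at -0.10 ± 0.06 (adjusted p = 0.306 in limma), and its interaction passed (-0.53 ± 0.09, adjusted p = 0.00535). Its vehicle animals were higher at day 29 than at day 8 by 0.47 ± 0.06 (adjusted p = 0.000259). Gstm5, of the mu class and named after its values were seen, fell at 2000 mg/kg on day 29 (-0.39 ± 0.09, adjusted p = 0.00219 in limma). It was at -0.05 ± 0.09 at 2000 mg/kg on day 8 and -0.14 ± 0.09 at 200 mg/kg and did not pass there.

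Genes that supply glutathione or carry its conjugates moved with the transferases in part. Of 20 listed 16 were measured. At 2000 mg/kg 8 rose and 2 fell on day 8, and 10 rose and 3 fell on day 29. At 200 mg/kg 3 rose and 1 fell. The medians were 0.27, 0.41 and 0.13. The shares of all clusters called higher were 9.32%, 12.1% and 1.37%, and those called lower 9.32%, 9.55% and 1.42%. Abcc3 rose in all 3 comparisons (3.54 ± 0.13, 4.40 ± 0.14 and 3.11 ± 0.13), as did Gsr, which regenerates reduced glutathione (1.06 ± 0.05, 1.15 ± 0.05 and 0.47 ± 0.05). Abcc4, a further efflux pump, rose at 2000 mg/kg only (1.75 ± 0.11 and 1.30 ± 0.12) and was at 0.35 ± 0.11 at 200 mg/kg (adjusted p = 0.0913). Chac1, which breaks glutathione down, fell at day 29 by a log2 change of -1.14 ± 0.19 and, at 200 mg/kg, -0.80 ± 0.18.

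Among 20 measured of 22 listed genes of the electrophile response outside the transferases, 18 rose at 2000 mg/kg on day 8, 16 on day 29 and 6 at 200 mg/kg, and none fell. Their medians were 0.72, 0.74 and 0.16, beside 0.80, 0.77 and 0.11 for the 9 transferase clusters. Of all clusters 9.32%, 12.1% and 1.37% were called higher in these comparisons. Gclc, Gclm and Slc7a11 stand in this list and in the glutathione supply list, so their rises are counted in both. Akr7a3 rose by 2.70 ± 0.13, 2.66 ± 0.14 and 1.48 ± 0.13 in the same order, and Nqo1, a quinone reductase, by 2.24 ± 0.11, 2.61 ± 0.11 and 1.15 ± 0.11. Me1, which makes NADPH, rose by 1.84 ± 0.12, 2.06 ± 0.13 and 0.75 ± 0.12. Hmox1, heme oxygenase, rose by 1.14 ± 0.18 and 1.29 ± 0.19 and was at 0.52 ± 0.18 at 200 mg/kg (adjusted p = 0.136).

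Regulators of transferase genes moved in both directions. Of 18 listed 17 were measured. At 2000 mg/kg 2 rose and 6 fell on day 8, and 3 rose and 5 fell on day 29. At 200 mg/kg 3 rose and 1 fell. The medians were -0.02, 0.03 and 0.12. Over all clusters 9.32%, 12.1% and 1.37% were called higher in these 3 comparisons, and 9.32%, 9.55% and 1.42% lower. The rises at 2000 mg/kg were near these shares, while the falls at 2000 mg/kg and the rises at 200 mg/kg were above them. Nfe2l2, which encodes NRF2 and is named after its values were seen, was at 0.03 ± 0.12, 0.10 ± 0.13 and -0.08 ± 0.12 and passed in none of the 3. Keap1, the protein that holds NRF2 back, rose by 0.37 ± 0.04, 0.57 ± 0.04 and 0.17 ± 0.04, and Ahr, the aryl hydrocarbon receptor, by 0.34 ± 0.09, 0.48 ± 0.09 and 0.39 ± 0.09. Jun, a subunit of AP-1, fell at day 29 by a log2 change of -1.78 ± 0.31 and, at 200 mg/kg, -1.16 ± 0.30, and was at -0.02 ± 0.30 on day 8. Nr3c1, the glucocorticoid receptor, fell at 2000 mg/kg on day 8 (-0.20 ± 0.07) and day 29 (-0.39 ± 0.07) and was at -0.20 ± 0.07 at 200 mg/kg (adjusted p = 0.121).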

How the data were processed

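RNA of the left liver lobe of 29 rats was read on Affymetrix whole-transcript arrays, per the labels' protocols. The authors deposited log2 values, 1 column per array and each cluster centred on its median (base 2 is assumed). PLIER and MAS5 are named in the submitters' processing notes. The sources used here do not give the normalization, any offset, the slides or the scan dates, so batches were not tested. The labels call the animals of a group biological replicates.

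All 27342 clusters were fitted with limma 3.58.1 (R 4.3.3) as 5 groups without covariates, with empirical Bayes moderation, two-sided tests and Benjamini-Hochberg adjustment within a comparison at 0.05. Tested on simulated data for 2000 mg/kg at day 8, the fit recovered 94% of log2 changes of 0.5 and 100% of changes of 1. For the interaction these shares were 69% and 99%. The simulation used independent normal noise and 200 changed clusters picked at random. Its shares are averages over clusters, whose median SD within groups was 0.11. They do not describe Gstm3, with an SD of 0.70. Array pairs correlated at 0.73 or less. All 9 clusters matched a RefSeq gene, and 0 symbols differed.

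Every member was described. From the lists of other transferases, glutathione supply, electrophile response and regulators, up to 4 called genes with the largest change at 2000 mg/kg on day 29 were named, and for each member cluster the 3 genes with the nearest group means. A gene with several clusters outside the members was read on the lowest probe number. Markers of 6 cell types were counted. Members and lists were chosen with earlier results of these data known, so their counts are not independent evidence. Alternatives covered scaling, the animals and clusters fitted, limma's settings, thresholds, a replicate block and leave-one-out fits.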

Additional observations from a re-analysis of the deposited data

Results flagged for a closer look

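Each of the 9 clusters was read in each of the 5 groups, which gave 45 sets of values. In 5 of these sets 1 animal stood far from the others of its group by Dixon's criterion, which chance meets in about 1 of 20 sets. The sets share the same animals and Gsta4 enters with both clusters, so they are not independent. After 2000 mg/kg to day 8, replicate 2 had the highest Gsta4 value on cluster 10911797, 0.99 against 0.72 for the next animal, and the lowest Gstm3 value, -0.31 against 0.74. In the same group replicate 3 had the lowest Gstm7 value, -0.73 against -0.19. Vehicle day 29 replicate 2 had the lowest Gstm2 value, -0.39 against -0.11. After 2000 mg/kg to day 29, replicate 2 had the highest Gstm3 value, 0.33 against -0.25.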

How the results depend on the processing

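Of 1245 alternative values of single clusters 1174 kept their direction and side of the threshold, 33 lost a call, 19 gained one and 19 changed sign, all of the last among values that had no call. Of 145 alternative counts 25 moved by more than 1.5 times. At 200 mg/kg the count was 1 with a fold of at least 1.5. For the interaction it was 1 with only the groups compared, with array weights and among clusters stored at 8 or more, and 2 without vehicle day 29 animals 1 and 2, an alternative added after seeing the data. Between vehicle groups it was 1 with quantile normalization, trend and robust settings, clusters stored at 8 or more or a fold of at least 1.5, and 0 with only the groups compared or at 0.01. Gsta3 is not among the clusters stored at 8 or more, so that setting left it out and did not test its call. Leaving out each animal gave counts of 7 to 8 at 2000 mg/kg on day 8, 6 to 7 on day 29, 3 to 4 at 200 mg/kg, 6 between doses, 0 to 2 for the interaction and 0 to 3 between vehicle groups; the cause was not tested. Signs turned for Gstm3 between doses with quantile normalization (0.0687) and array weights (0.0062) and for Gstm4 between vehicle groups with centred arrays (-0.0005). Without single animals they turned for Gstm7 at day 8 (-0.1653 to 0.0095), Gstm3 between doses (-0.2598 to 0.2907) and Gstm4 between vehicle groups (-0.0355 to 0.0255), and in the interaction for Gsta4 on cluster 10911797 (-0.0091 to 0.1625), Gstm4 (-0.0735 to 0.0006), Gstm7 (-0.1502 to 0.059) and Gstp1 (-0.0282 to 0.2753). No scaling moved the median of all clusters by more than 0.037.

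The 56 pairs of animals with the same replicate number had a median correlation of deviations of 0.0099 (-0.28 to 0.30, 12 of them over 0.1). The 280 pairs with different numbers had a median of 0.0036. These medians cannot show whether some same-numbered animals shared a batch, which was not tested. With the replicate number as a block the count between vehicle groups was 1, with Gstm2 at an adjusted p of 0.0568, and Gstm3 at day 8 was at 0.0626. The number of arrays and the unknown offset limit small folds and low signals.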
